A study of Mus musculus with 8 samples.

Results

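Tpl2-deficient and wild-type mouse macrophages were compared after both had been treated with lipopolysaccharide (LPS), the cell wall component of Gram-negative bacteria that toll-like receptor 4 senses. The comparison uses 4 of the 8 arrays of the series: 2 arrays of LPS-treated Tpl2-deficient cells against 2 of LPS-treated wild-type cells, chosen by the genotype and treatment in their labels. The remaining 4 arrays, 2 of each genotype left unstimulated, serve as the background and as part of the estimate of spread. Bone marrow of Tpl2 wild-type or Tpl2-deficient mice was grown into macrophages with macrophage colony-stimulating factor (M-CSF), adherent cells were kept, and the treated cells received LPS of Escherichia coli 0111:B4 at 1 μg/mL. The labels mention several times of stimulation and give none for these arrays, and they do not state the strain, age or sex of the mice or which part of the Tpl2 gene was disrupted. They name no conditional allele or Cre driver, and cells are described only as Tpl2-deficient. Both arrays of each group are labelled as biological replicates, with no animal or culture named, so the p-values reflect the spread between these samples only, which may in part be technical.

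Tpl2 (gene Map3k8) is a kinase that in resting macrophages is held inactive by the NF-kB1 precursor p105 and the adaptor ABIN-2 (gene Tnip2). When toll-like receptors activate the IKK kinases, p105 is phosphorylated and degraded, and the released Tpl2 phosphorylates MEK, which activates the kinases ERK1 and ERK2. ERK in turn drives immediate-early transcription factors such as Fos and Egr1 and also the phosphatases and Sprouty proteins that switch it off. In macrophages the pathway is known for its part in interleukin 10 and interleukin 1 beta production, for the release of soluble TNF, and for holding back interferon beta and interleukin 12. The title of the series adds the question of chemokines, their receptors and macrophage migration.

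Values are log2 RMA signals, a summary of several probes per transcript in which 1 unit is a 2-fold step. Each gene takes the probe set whose average over all 8 arrays is highest, and differences are given as Tpl2-deficient minus wild type. A gene passed the test at an adjusted p under 0.05 over all 18193 genes in limma, and "rose" and "fell" are used for genes that passed, in the sense of higher or lower in Tpl2-deficient cells. A signal under the median of its array (6.48 to 6.53) may be background. A fold whose lower mean lies under that level is therefore given as "at least". Log2 differences carry the same limit, among them those of Vegfa, Cmklr1, Havcr2, Rhov, Vegfc and Uchl1. Whether differences are compressed at the brightest signals was not tested. Counts in the gene lists are to be read beside the shares of all genes, 8.01% that rose and 5.73% that fell.

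Map3k8 itself was the check of the labels. Its signal was 11.01 and 10.91 on the LPS-treated wild-type arrays and 9.83 and 10.09 on the Tpl2-deficient ones, a difference of -0.9996 (SE 0.11, adjusted p = 0.000125). The gene was lower in both mutant arrays, but the signal stayed well above the array median, and whether the probe set lies in the disrupted part is not known. Tnip2, which stabilises Tpl2, differed by -0.46 (adjusted p = 0.0174). That call was lost in 7 of the alternatives, among them array weights and leaving out either LPS-treated wild-type array. Of 11 measured genes of the Tpl2, MEK and ERK kinases, 3 rose (27.3%, against 8.01% of all genes) and 2 fell (18.2%, against 5.73%). Besides Map3k8 and Tnip2 these were Rps6ka5, the nuclear kinase MSK1, with a difference of 1.09, Braf with 0.49 and Mknk1 with 0.46. The Braf call was lost in 11 of the alternatives and the Mknk1 call in 7. Another Mknk1 probe set differed by 0.02 and did not pass. With array weights 1 rose and 1 fell.

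Markers of macrophages had a high signal in both genotypes, and some of them differed. Csf1r, the M-CSF receptor, read 14.52 and 14.53 on the wild-type arrays and 14.42 and 14.53 on the Tpl2-deficient arrays, and Adgre1 (F4/80) read 13.69 and 13.74 against 13.39 and 13.66. Of 13 measured macrophage markers 2 rose (15.4%, against 8.01% of all genes) and 3 fell (23.1%, against 5.73%). The falls included Msr1 at -1.19 and Cebpa at -0.83, and the highest difference in the list was 0.996. Lists of other cell types had 0 of 10 dendritic cell, 0 of 10 T and NK cell and 0 of 9 B cell markers past the test (0 in each also at an unadjusted p under 0.05), 1 of 12 for neutrophils (S100a8 at -1.14), 1 of 8 for erythroid cells (Tal1 at -1.78), 1 of 9 for mast cells (Hdc at 0.60), 1 of 8 for progenitors (Gfi1 at 1.39) and 2 of 12 for stromal cells (Postn at -0.53 and Pdgfrb at 1.20). The shares that fell were 8.33% of neutrophil, 12.5% of erythroid and 8.33% of stromal markers, against 5.73% of all genes. Those that rose were 11.1% of mast cell, 12.5% of progenitor and 8.33% of stromal markers, against 8.01%. The calls of Postn, Pdgfrb and Hdc were lost in 8, 6 and 5 of the alternatives, array weights among them. The mean level of a list on the 4 arrays lay between 6.94 and 7.17 for neutrophil markers and between 6.14 and 6.23 for B cell markers. In 10 osteoclast markers 1 rose (10%, against 8.01% of all genes) and 4 fell (40%, against 5.73%), with differences from -1.20 to 1.03. The 2 LPS-treated Tpl2-deficient arrays stood further apart than any other pair, with a median SD per gene of 0.129 against 0.0649 to 0.0662 in the other groups. Their Actb probe sets also differed more between the 3' and 5' ends of the transcript (0.61 and 0.68, against 0.46 and 0.55 in wild type with LPS), as did those of Gapdh (0.05 and 0.10, against -0.09 and -0.07). Unstimulated arrays of both genotypes had Actb values of 0.67 to 0.90. The part of this RNA quality measure in the results was not tested.

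Between the LPS-treated genotypes 2500 genes passed the test, 13.7% of those tested: 1457 were higher in Tpl2-deficient cells (8.01%) and 1043 were lower (5.73%). The lower genes held the larger differences, with 272 lower (1.5%) and 190 higher (1.04%) by at least 2-fold, and 54 lower and 18 higher by at least 4-fold. The 2 groups do not overlap in any of the 2500 genes, nor in 46.6% of all genes tested, so a gap between the groups is common at this number of arrays. The median difference of all genes was 0.02. Fewer cells carrying a transcript and less of it per cell cannot be told apart in bulk RNA. Without LPS-treated wild-type replicate 1 the counts were 757 higher and 630 lower, and without replicate 2 they were 713 and 643. With the arrays of each group weighted by their spread they were 849 and 727.

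**Figure D1:**
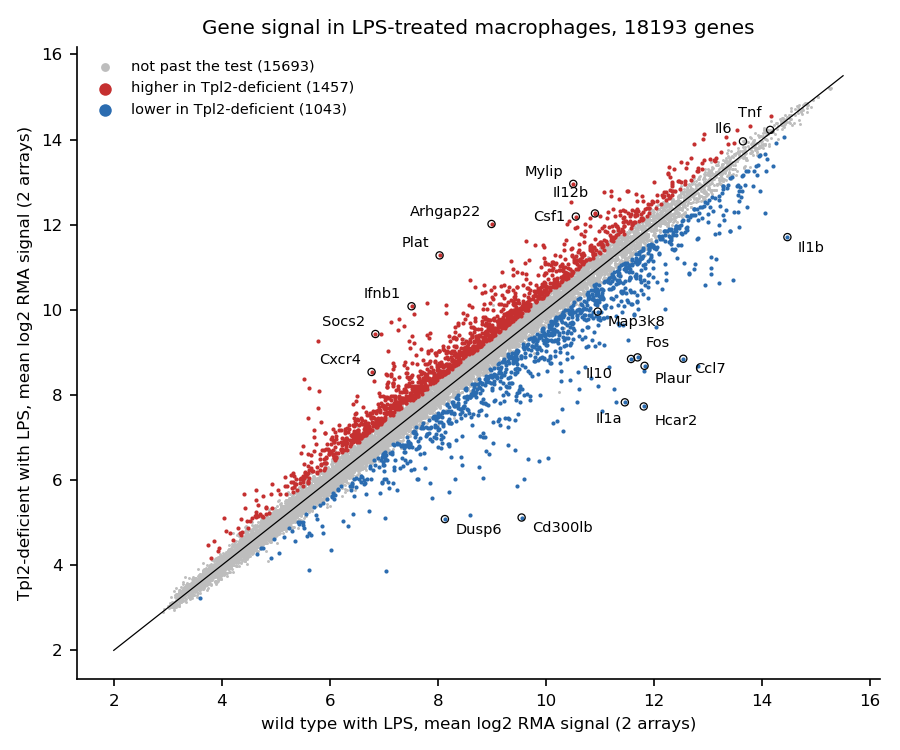
Mean log2 RMA signal of each gene in LPS-treated wild-type cells (x axis, 2 arrays) against LPS-treated Tpl2-deficient cells (y axis, 2 arrays), with the diagonal of equal signal. Red and blue points are the 1457 genes higher and the 1043 genes lower in Tpl2-deficient cells; named points below the diagonal, such as Cd300lb, Il1a, Ccl7 and Il1b, lie further from it than most named points above it.

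Receptors and secreted proteins led the genes that fell. Cd300lb, an activating receptor of the CD300 family on myeloid cells, gave the largest difference of all genes. It read 9.57 and 9.52 on the wild-type arrays and 5.47 and 4.78 on the Tpl2-deficient arrays, where it fell under the array median, a fold of at least 21.5 (log2 difference -4.43, SE 0.18, adjusted p = 8.21e-08). Hcar2, the receptor for niacin and beta-hydroxybutyrate, read 11.80 and 11.82 against 7.63 and 7.83, which is 16.9-fold lower. Olr1, the receptor LOX-1 for oxidised lipoprotein, read 9.55 and 9.38 against 5.95 and 5.77, at least 12.2-fold lower. In each of these the 2 mutant arrays were far below the 2 wild-type arrays.

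Genes of varied function filled the remaining places among the 15 largest falls, counted without predicted genes and cDNA clones. Flrt3, an adhesion protein of the FLRT family, read 9.55 and 9.63 against 6.07 and 5.96 (at least 11.9-fold lower), and its relative Flrt2 read 10.33 and 10.29 against 7.02 and 7.31 (8.85-fold lower). Slc39a14, a zinc and iron importer, read 11.21 and 11.38 against 7.68 and 8.01 (10.9-fold lower). Rgl1, an exchange factor for Ral GTPases, was 10.7-fold lower and Zfp658, a zinc finger protein, at least 8.94-fold lower. The others in this group, Ccl7, Il1a, Id1, Ccr1, Ptger2, Serpinb2 and Dusp4, are described with their families.

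Among the genes that rose, predicted genes and cDNA clones apart, Plat, the tissue plasminogen activator, gave the largest difference. Its signal was 7.79 and 8.27 in wild type and 11.18 and 11.38 in Tpl2-deficient cells, 9.50-fold higher. A dimmer Plat probe set rose by 1.19. Arhgap22, a GTPase-activating protein for Rac, read 8.88 and 9.11 against 11.83 and 12.21 (8.14-fold higher), while the unstimulated genotypes differed by -0.06. Elavl4, an RNA-binding protein best known from neurons, read 5.41 and 5.63 against 8.63 and 8.14, at least 7.28-fold higher.

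Several less studied genes were also among the 15 largest rises. Efna2, a ligand of Eph receptors, read 7.26 and 7.01 against 9.94 and 9.47 (5.94-fold higher), with another probe set at 0.90. The alcohol dehydrogenase gene Adhfe1 was 5.19-fold, the calcium entry regulator Stimate 5.08-fold and the ubiquitin ligase Rnf144b 4.72-fold higher, with another Rnf144b probe set at 0.20 and not past the test. Other Adhfe1 probe sets differed by 0.99 and, not past the test, -0.20. Atp10d, a phospholipid flippase, read 7.29 and 7.23 against 9.03 and 10.03 (4.83-fold higher), with the mutant arrays 1 step apart. Foxl2os and Tex15 were at least 5.86-fold and 4.89-fold higher, from wild-type means under the array median.

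The 250 bases before the annotated start of 4 of these genes are shown because 3 of them hold a match to a motif of a factor downstream of toll-like receptors. They come from the RefSeq promoter table of assembly GRCm38.p6, 5′ to 3′ on the strand of the gene, and capitals mark the match. Cd300lb lies at chr11:114934372-114934621, Il1a at chr2:129309973-129310222, Olr1 at chr6:129507166-129507415 and Ifnb1 at chr4:88522795-88523044, all on the minus strand.
Cd300lb: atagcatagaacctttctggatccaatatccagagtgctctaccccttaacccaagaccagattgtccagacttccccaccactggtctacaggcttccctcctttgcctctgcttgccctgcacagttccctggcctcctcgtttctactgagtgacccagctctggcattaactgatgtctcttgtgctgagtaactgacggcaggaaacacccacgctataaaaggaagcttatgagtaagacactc
Il1a: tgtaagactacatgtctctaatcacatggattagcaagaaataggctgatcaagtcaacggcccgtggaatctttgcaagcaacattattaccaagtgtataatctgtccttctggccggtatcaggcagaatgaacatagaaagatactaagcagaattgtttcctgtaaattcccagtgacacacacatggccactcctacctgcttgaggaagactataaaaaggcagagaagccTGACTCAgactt
Olr1: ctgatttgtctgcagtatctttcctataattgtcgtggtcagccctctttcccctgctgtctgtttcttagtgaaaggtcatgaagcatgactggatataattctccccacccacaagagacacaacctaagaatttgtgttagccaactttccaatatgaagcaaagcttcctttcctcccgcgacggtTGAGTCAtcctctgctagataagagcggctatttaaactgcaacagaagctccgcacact
Ifnb1: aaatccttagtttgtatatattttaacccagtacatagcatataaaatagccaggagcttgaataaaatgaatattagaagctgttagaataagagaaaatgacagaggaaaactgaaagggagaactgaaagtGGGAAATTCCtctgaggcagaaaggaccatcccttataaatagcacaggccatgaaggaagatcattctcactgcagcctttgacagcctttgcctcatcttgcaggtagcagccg
Both Il1a and Olr1, which fell, hold an AP-1 motif (searched as TGANTCA on both strands), TGACTCA at -12 to -6 and TGAGTCA at -60 to -54. Ifnb1, which rose, holds an NF-kB motif (searched by its consensus, which has ambiguous letters), GGGAAATTCC at -116 to -107. Cd300lb, and the promoters of Arhgap22 and Elavl4 searched in the same way (for Elavl4, 1 of the 4 starts in the table), had no match to the 5 motifs searched on both strands (AP-1, NF-kB, the interferon-stimulated response element, EGR as GCGNGGGCG, and CArG), and no match overlapped another. Of the 14452 tested genes with an entry, 5.58% hold the AP-1 motif and 8.39% the NF-kB motif. The AP-1 motif was held by 5.16% of the 834 genes that fell and 3.16% of the 1172 that rose with an entry, and the EGR motif by 12.1% and 9.04%, against 7.45% of all tested. A match describes the letters only.

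Immediate-early transcription factors, the first genes that ERK signals switch on, fell more often than they rose. Of 21 measured, 11 fell and 2 rose, with a median difference of -0.43 against 0.02 over all genes. Fos, a subunit of AP-1, read 11.61 and 11.78 in LPS-treated wild type and 8.94 and 8.82 in Tpl2-deficient cells, 7.02-fold lower (log2 difference -2.81, SE 0.11, adjusted p = 8.21e-08). Without LPS the genotypes differed by -0.07 in Fos. Ier2 read 11.22 and 11.11 against 8.65 and 8.65 (5.71-fold lower), and Ier3, a survival gene, 12.31 and 12.11 against 10.14 and 9.89 (4.57-fold lower).

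The other AP-1 and zinc finger factors spread from clear falls to rises. Egr1 read 8.79 and 8.87 against 7.15 and 7.06 (3.32-fold lower), and Egr2 was 2.00-fold lower. Fosl2 fell by 1.86 on the log2 scale, but another of its probe sets differed by only -0.20. Jun differed by -0.64, Myc by -0.76 and Klf2 by -1.10, all past the test, whereas Junb read 11.74 and 11.80 against 11.75 and 11.77, a difference of -0.01. Klf4 and Ier5 rose, by 0.82 and 0.90.

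All feedback inhibitors of ERK that passed the test fell. Of 15 measured, 8 fell and 0 rose, with a median of -0.80. The list covers dual-specificity phosphatases, Sprouty and Spred proteins and Errfi1. Dusp6, the cytoplasmic ERK phosphatase, read 8.004 and 8.26 against 5.44 and 4.73 (at least 8.26-fold lower), and Dusp4, a nuclear ERK phosphatase, 9.65 and 9.68 against 6.17 and 6.84 (at least 8.94-fold lower). Spry2 read 8.06 and 7.73 against 5.63 and 5.52 (at least 4.98-fold lower), while another of its probe sets, near the array median, differed by -0.02.

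Dusp1, a phosphatase that acts mainly on p38 and JNK, read 13.47 and 13.68 against 12.05 and 11.86 (3.06-fold lower). Spred2 was 2.67-fold lower by its main probe set, with another probe set at 0.10. Other phosphatases of the family did not pass: Dusp2 read 12.97 and 13.05 against 13.17 and 13.18, and Dusp5 8.05 and 8.27 against 8.21 and 8.13. When all probe sets of a gene were averaged, the list's median was -0.33, with 8 lower and 2 higher.

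**Figure D2:**
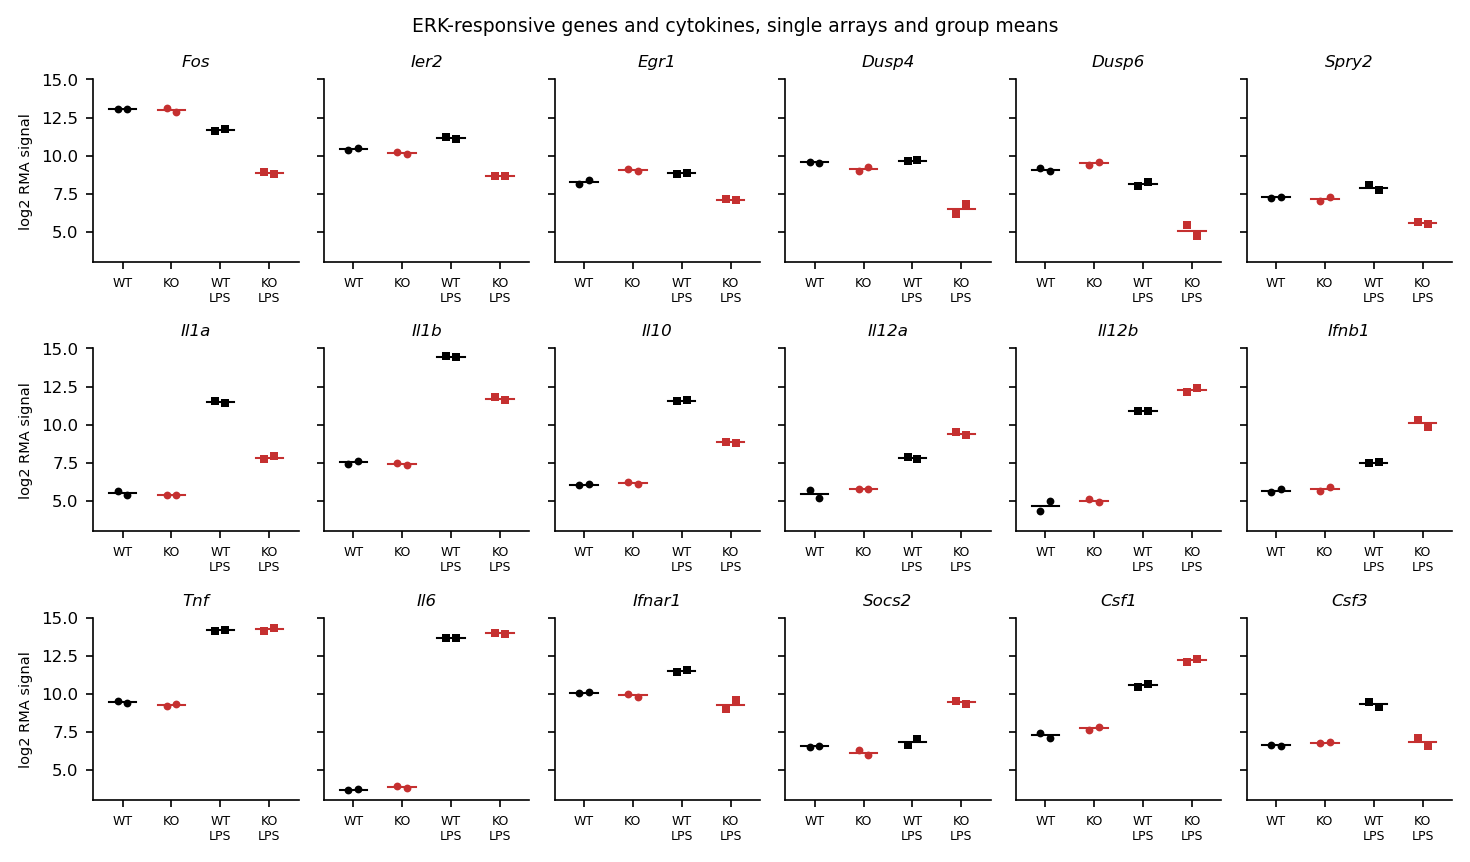
Log2 RMA signal of 18 ERK-responsive, cytokine and interferon genes on each of the 8 arrays (points) with group means (bars); black is wild type, red Tpl2-deficient, circles are without LPS and squares with LPS. Fos, Ier2, Egr1, Dusp4, Dusp6 and Spry2 separate below wild type with LPS, Il12a, Il12b, Ifnb1, Socs2 and Csf1 separate above it, and Tnf overlaps.

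The inflammatory cytokines did not move one way. Of 20 measured, 4 fell (20%, against 5.73% of all genes) and 5 rose (25%, against 8.01%), with a median of 0.12. Interleukin 1 was lower: Il1a read 11.53 and 11.39 in wild type and 7.73 and 7.93 in Tpl2-deficient cells (12.4-fold lower, adjusted p = 4.28e-08), and Il1b 14.48 and 14.46 against 11.81 and 11.60 (6.78-fold lower). Osm differed by -0.63. The subunits of the interleukin 12 family were higher, with Il12a at 7.86 and 7.73 against 9.52 and 9.31 (3.08-fold), Il12b at 10.92 and 10.89 against 12.13 and 12.40 (2.56-fold) and Ebi3 at 12.75 and 12.75 against 13.96 and 13.83 (2.21-fold).

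Tnf and Il6 did not pass the test. Tnf read 14.11 and 14.20 against 14.13 and 14.32, with overlapping groups (difference 0.08, SE 0.11, adjusted p = 0.767). Il6 read 13.65 and 13.65 against 13.98 and 13.93, so both mutant arrays were higher, at a difference of 0.31 (adjusted p = 0.0676), which passed under 3 of the alternatives.

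Anti-inflammatory cytokines, receptors and STAT feedback genes fell more often than they rose, with 9 of 18 down and 3 up (median -0.30). Il10 read 11.53 and 11.62 against 8.89 and 8.81, 6.63-fold lower (adjusted p = 5.28e-08). Il4ra, the interleukin 4 receptor chain, was 3.07-fold lower, Il1rn, the interleukin 1 receptor antagonist, 1.90-fold and Socs3 1.66-fold, the Socs3 call being lost with array weights and without any 1 of the 4 LPS-treated arrays. The other 2 Socs3 probe sets differed by -1.25 and -1.03 and the other 2 of Il1rn by -1.41 and -1.17, all past the test, whereas another of Il4ra, at -0.47, did not pass. Socs2, a feedback inhibitor of growth hormone and cytokine receptors, moved the other way, from 6.64 and 7.04 to 9.51 and 9.35 (6.02-fold higher). Its other probe sets differed by 3.18, 0.72, 0.21, 0.07 and -0.18, of which 3.18 and 0.72 passed the test. Without LPS-treated wild-type replicate 1 the counts for the list were 6 lower and 1 higher.

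Colony-stimulating factors moved in opposite directions. Csf3, which drives neutrophil production, read 9.47 and 9.12 against 7.06 and 6.58 (5.55-fold lower), and Csf1, the gene of M-CSF, read 10.45 and 10.66 against 12.10 and 12.29 (3.11-fold higher). Of the other 3 Csf1 probe sets 2 also rose and 1 differed by 0.18. Over 20 colony-stimulating and growth factors and their receptors, 6 fell and 1 rose, with 3 falls left without LPS-treated wild-type replicate 2. Pdgfa at -1.39 and Vegfa at -1.01 were among the falls. Vegfa read 5.73 and 6.30 in Tpl2-deficient cells, under the array median, and another of its probe sets, at -0.34, did not pass.

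Interferon beta was higher, while no gene of the list of interferon-stimulated genes passed the test with LPS. Ifnb1 read 7.48 and 7.54 in wild type and 10.33 and 9.84 in Tpl2-deficient cells (5.95-fold higher, adjusted p = 1.29e-06). Ifnar1, a chain of the receptor that interferon beta binds, read 11.44 and 11.58 against 8.997 and 9.58 (4.67-fold lower). Of 34 interferon-stimulated genes 0 passed the limma test in either direction (median -0.03, range -0.46 to 0.51), against 13.7% of all genes, and 2 had an unadjusted p under 0.05. The mean level of the list was 13.45 to 13.53 on the 4 LPS-treated arrays. Whether differences are compressed at signals this bright was not tested. Without LPS the list's median difference was 0.29, and 3 of the 34 passed, against 0.5% of all genes. In 4 the difference with LPS itself differed from that without LPS (limma interaction, adjusted p under 0.05), against 8.59% of all genes.

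Antiviral effectors gave the range of these values. Ifit1 read 14.80 and 14.76 against 14.80 and 14.88, and Rsad2 15.30 and 15.24 against 15.16 and 15.25. The lowest and highest differences were those of Mx2 (12.08 and 12.18 against 11.53 and 11.82) and Oas3 (11.26 and 11.36 against 11.72 and 11.92). Centring on the spike-in controls made 1 of the 34 pass, and with only genes above the median level Mx2 and Oas3 passed, in opposite directions. Oas3 passed in 6 of the alternatives and Mx2 in 3. Among 19 interferon and interferon regulatory factor genes 3 rose (15.8%, against 8.01% of all genes) and 3 fell (15.8%, against 5.73%). They included Irf1 at 0.73 and the interferon gamma receptor chains Ifngr1 at -0.50 and Ifngr2 at -0.70.

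Chemokine ligands changed in both directions, and most did not pass. Of 32 measured, 6 fell (18.8%, against 5.73% of all genes) and 4 rose (12.5%, against 8.01%), with a median of 0.02, and without LPS-treated wild-type replicate 1 the counts were 4 and 0. Ccl7 read 12.51 and 12.58 against 8.97 and 8.74 (12.9-fold lower) and Ccl2 12.90 and 12.98 against 10.44 and 10.72 (5.11-fold lower), both ligands of the monocyte receptor CCR2. Cxcl3 read 10.54 and 10.42 against 9.04 and 8.76 (2.99-fold lower) and Cxcl2 14.03 and 13.91 against 12.74 and 12.86 (2.25-fold lower), both ligands of the neutrophil receptor CXCR2. Cxcl2 already differed by -1.03 between the unstimulated genotypes.

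Ccl3, Ccl5 and Cxcl10, ligands of CCR1 or CXCR3, did not pass the test. Ccl3 read 14.72 and 14.73 against 14.69 and 14.65, Ccl5 14.65 and 14.70 against 14.77 and 14.78, and Cxcl10 14.96 and 14.86 against 14.79 and 14.75. At signals this bright a difference may be compressed, which was not tested. Cxcl11, an interferon-inducible ligand of CXCR3, rose from 13.45 and 13.64 to 14.14 and 14.32 (1.61-fold), a call lost without LPS-treated wild-type replicate 1. A second, dimmer Cxcl11 probe set read 6.92 and 6.84 against 10.66 and 11.14, a difference of 4.02 (limma, adjusted p = 1.19e-07 over all probe sets), so the size of the rise depends on the probe set. The smaller changes were falls of Ccl12 and Ccl6 (-0.53 and -0.43) and rises of Cxcl9, Ccl22 and Cx3cl1 (0.46, 0.56 and 0.72). Their calls were lost in 2 alternatives for Ccl12, 11 for Ccl6, 6 for Cxcl9, 1 for Ccl22 and 3 for Cx3cl1, and another Cxcl9 probe set rose by 1.73.

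The receptors by which macrophages sense attractants changed in both directions. Among 21 chemokine receptors 4 fell (19%, against 5.73% of all genes) and 2 rose (9.52%, against 8.01%). Under array weights 2 fell and 1 rose. In 9 of the 21 both group means lay under the array median. Ccr1, a receptor of Ccl3, Ccl5 and Ccl7, read 10.04 and 9.72 against 6.52 and 6.39 (at least 10.7-fold lower). Cxcr4, the receptor of CXCL12, read 6.74 and 6.81 against 8.53 and 8.55 (3.41-fold higher).

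Of 12 receptors for other attractants 6 fell and 1 rose (median -0.39). The complement receptors C5ar1 and C3ar1 were 2.11-fold and 1.67-fold lower, the nucleotide receptors P2ry6 and P2ry2 differed by -1.42 and -1.30, and Cmklr1, the chemerin receptor, by -1.47. Gpr183, the receptor for 7α,25-dihydroxycholesterol, was at least 2.55-fold higher, at 6.495 and 6.35 against 7.88 and 7.67. Ch25h, the enzyme that makes 25-hydroxycholesterol, a step toward that ligand, read 13.51 and 13.41 against 10.50 and 10.89 (6.78-fold lower).

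Plasminogen activation and matrix breakdown, by which cells move through tissue, held some of the largest differences in both directions. Of 21 genes 7 fell and 1 rose (median -0.22). Serpinb2, an inhibitor of plasminogen activators, read 11.94 and 11.71 against 8.69 and 8.44 (9.59-fold lower), and Plaur, the urokinase receptor, 11.86 and 11.79 against 8.57 and 8.80 (8.82-fold lower). Plat was the 1 that rose, as given above. Urokinase itself, Plau, read 6.40 and 6.18 against 5.54 and 5.90, all under the array median, so its expression was not shown. Mmp13, a collagenase, was 3.41-fold lower and Timp1, an inhibitor of matrix metalloproteinases, 3.28-fold lower, while Adam8, Mmp12 and Mmp9 differed by -0.99, -0.93 and -0.61.

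Adhesion genes changed in both directions. Of 23 integrins and adhesion molecules 4 fell (17.4%, against 5.73% of all genes) and 2 rose (8.7%, against 8.01%). Under array weights 2 fell and 1 rose. Pdpn (podoplanin) read 12.67 and 12.63 against 10.69 and 10.98 (3.51-fold lower), and it differed by -1.26 without LPS. Itga4, the alpha chain of the integrin VLA-4, rose 1.80-fold, from 12.51 and 12.71 to 13.36 and 13.55.

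**Figure D3:**
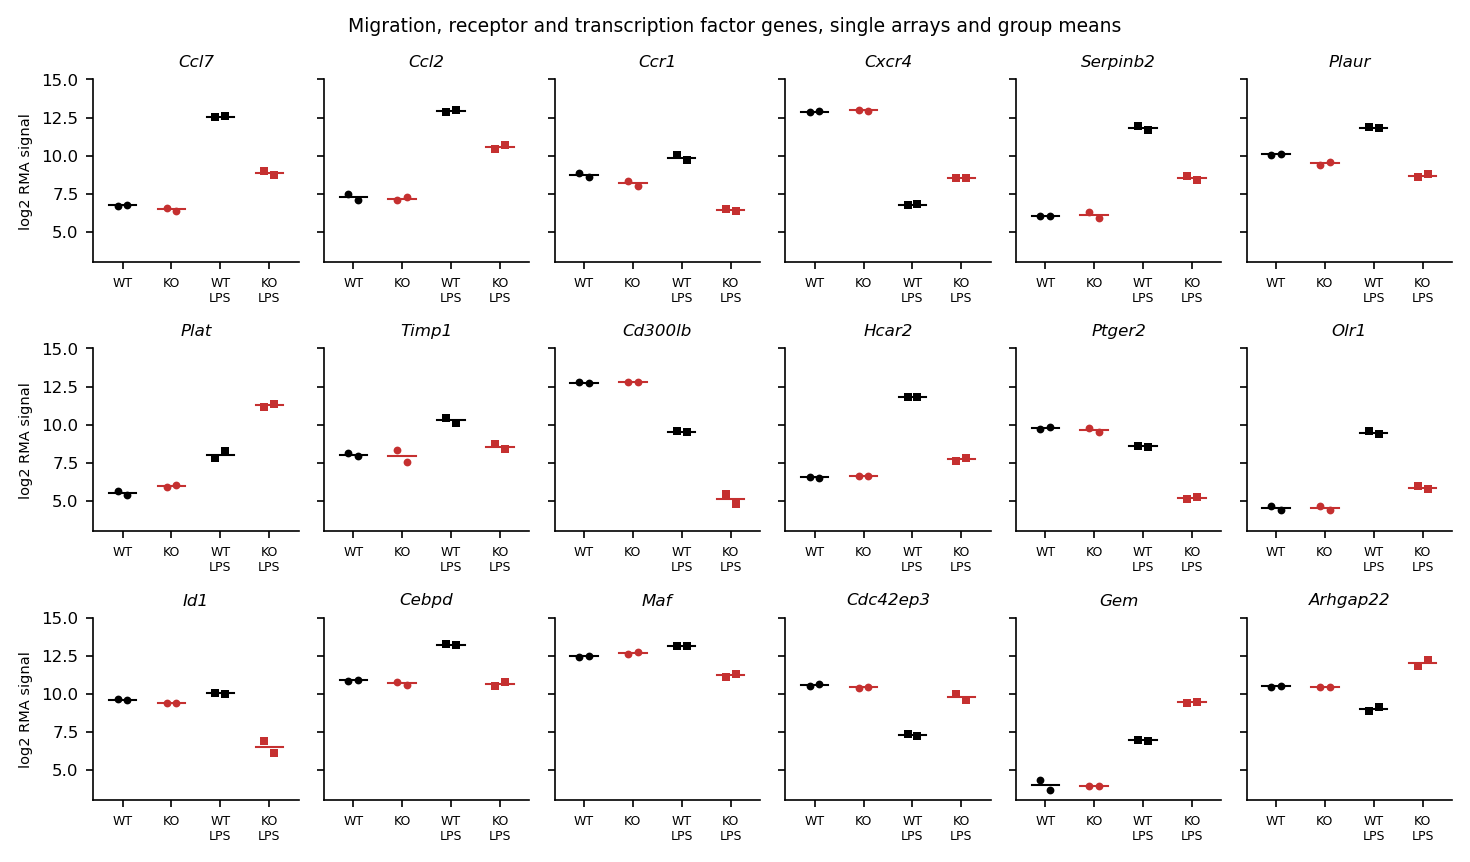
Log2 RMA signal of 18 chemokine, protease, receptor, transcription factor and GTPase-related genes on each of the 8 arrays (points) with group means (bars); black is wild type, red Tpl2-deficient, circles are without LPS and squares with LPS. With LPS the genotypes separate in every panel, with Cxcr4, Plat, Cdc42ep3, Gem and Arhgap22 higher and the other 13 lower in Tpl2-deficient cells.

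Surface receptors of the CD300, TREM, Siglec and Fc families fell or did not pass the test. Of 26 measured, 15 fell and 0 rose (median -0.42), most by less than 2-fold. Apart from Cd300lb the largest were Cd33, an inhibitory Siglec, at 8.64 and 8.97 against 7.92 and 7.77 (1.95-fold lower), Siglec1 at -0.86 (-0.14 on another probe set), and Fcgr3, a low-affinity IgG receptor, at 13.67 and 13.57 against 12.83 and 12.75 (1.78-fold lower). The signalling adaptors of these families did not pass, with Tyrobp at 14.30 and 14.31 against 14.37 and 14.25 and Fcer1g at 14.38 and 14.38 against 14.46 and 14.37. With array weights, or without LPS-treated wild-type replicate 1, 7 of the 26 fell.

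Scavenger and lectin receptors, which take up modified lipoproteins and microbes, showed 7 falls and 1 rise in 21. Marco, a scavenger receptor that binds bacteria, read 10.40 and 10.19 against 7.50 and 7.84 (6.16-fold lower), and Msr1, the class A scavenger receptor, 13.27 and 13.34 against 12.08 and 12.15 (2.28-fold lower). Colec12 rose 3.08-fold, from 7.61 and 7.37 to 9.25 and 8.97, and differed by 1.18 without LPS as well.

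Receptors for metabolites and prostaglandins had 3 falls (15.8%, against 5.73% of all genes) and 1 rise (5.26%, against 8.01%) in 19, all above 2-fold. Gpr84, a receptor for medium-chain fatty acids, read 13.08 and 13.05 against 11.14 and 11.34 (3.54-fold lower). The receptors EP2 and EP4 for prostaglandin E2 moved in opposite directions: Ptger2 read 8.63 and 8.56 against 5.12 and 5.26 (at least 10.6-fold lower), and Ptger4 10.89 and 10.94 against 12.21 and 12.28 (2.51-fold higher). In prostaglandin and leukotriene synthesis 2 of 14 fell (14.3%, against 5.73% of all genes) and 3 rose (21.4%, against 8.01%). Pla2g4a, the cytosolic phospholipase A2 that frees arachidonic acid, was 2.57-fold lower. Ptgs2 (cyclooxygenase 2) differed by -0.62 (adjusted p = 0.0312), a call lost with array weights and when any 1 of the 4 LPS-treated arrays was left out. A second, dimmer Ptgs2 probe set read 11.37 and 11.35 against 9.02 and 9.39, a difference of -2.16 (limma, adjusted p = 1.84e-06 over all probe sets).

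Toll-like receptors and adaptors fell more often than they rose. Of 21 measured, 6 fell (28.6%, against 5.73% of all genes) and 1 rose (4.76%, against 8.01%), with a median of -0.20. Tlr4, the LPS receptor, read 9.54 and 9.45 against 7.93 and 8.23 (2.68-fold lower), and Tlr8 and Tlr13, receptors for RNA, were 2.97-fold and 2.63-fold lower. Irak3, which restrains toll-like receptor signals, was 2.64-fold lower. Ly96 (MD-2), the partner of TLR4, rose by 0.51, a call lost in 12 of the alternatives.

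Most NF-kB genes did not pass, with 1 fall (5%, against 5.73% of all genes) and 3 rises (15%, against 8.01%) in 20 (median -0.06). Tnip1, an inhibitor of NF-kB, fell 2.05-fold, from 13.21 and 13.33 to 12.12 and 12.35, and Traf1 rose 1.56-fold. Ikbkb, the IKK beta kinase, was 2.01-fold higher, and of its other 4 probe sets 2 also rose while 1 with a clear signal differed by -0.05. Regulators of mRNA decay, which shorten the life of cytokine transcripts, had 5 falls and 0 rises in 13. Zfp36 (tristetraprolin) read 13.41 and 13.40 against 11.88 and 11.83 (2.94-fold lower), and Zc3h12a (regnase 1) 11.33 and 11.27 against 9.68 and 10.04 (2.72-fold lower).

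Transcription factors of the macrophage lineage had 10 falls and 4 rises in 22 (median -0.20). Id1, an inhibitor of basic helix-loop-helix factors, read 10.07 and 10.01 against 6.91 and 6.12 (11.5-fold lower). Cebpd, a factor induced in acute inflammation, read 13.24 and 13.17 against 10.50 and 10.75 (5.98-fold lower), and Cebpa and Cebpb differed by -0.83 and -0.82. Maf, an activator of Il10 in macrophages, read 13.14 and 13.14 against 11.12 and 11.27 (3.85-fold lower). Lhx2 rose 1.84-fold, and the 4 rises became 2 under array weights.

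D cyclins, which carry growth signals into the cell cycle, all fell: Ccnd1 from 9.56 and 9.86 to 7.93 and 8.04 (3.30-fold), Ccnd2 from 12.02 and 12.04 to 9.74 and 9.47 (5.39-fold) and Ccnd3 from 9.80 and 9.69 to 8.45 and 8.45 (2.45-fold). The other Ccnd3 probe sets differed by 0.16 and 0.008 and did not pass. The one at 0.008 lay above the array median, at 7.87 and 7.75 against 7.85 and 7.79. The fall of Ccnd3 thus rests on its brightest probe set. These cyclins were the 3 falls among 26 mitosis and cyclin genes (11.5%, against 5.73% of all genes). The single rise, Mki67, differed by 0.79 (adjusted p = 0.0421) and was lost in 7 of the alternatives. Of 25 DNA replication genes 4 rose (16%, against 8.01% of all genes) and 1 fell (4%, against 5.73%). The fall was the licensing factor Cdt1 at -1.07. In 20 survival and death genes 5 fell (25%, against 5.73% of all genes) and 2 rose (10%, against 8.01%). Bcl2l1 (BCL-XL), which protects from apoptosis, was 2.35-fold lower and Pmaip1 (NOXA), which promotes it, 2.49-fold higher.

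Small GTPases and actin regulators changed in both directions, with 8 up and 11 down of 29, and 7 and 7 with array weights. Cdc42ep3, an effector of the GTPase Cdc42, read 7.32 and 7.23 against 9.95 and 9.62 (5.68-fold higher), and the small GTPase Gem 6.95 and 6.92 against 9.42 and 9.43 (5.60-fold higher). Rgs1, an inhibitor of G protein signals from chemokine receptors, read 11.03 and 11.37 against 13.06 and 12.51 (2.99-fold higher), with Rhof 2.65-fold and Rhob 2.39-fold higher. Another Rhof probe set, under the array median with LPS, differed by -0.32 and did not pass. Was, the activator of actin branching mutated in Wiskott-Aldrich syndrome, was 2.23-fold lower, and Rhov, Rnd1 and Rhou differed by -1.13, -1.09 and -1.08.

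**Figure D4:**
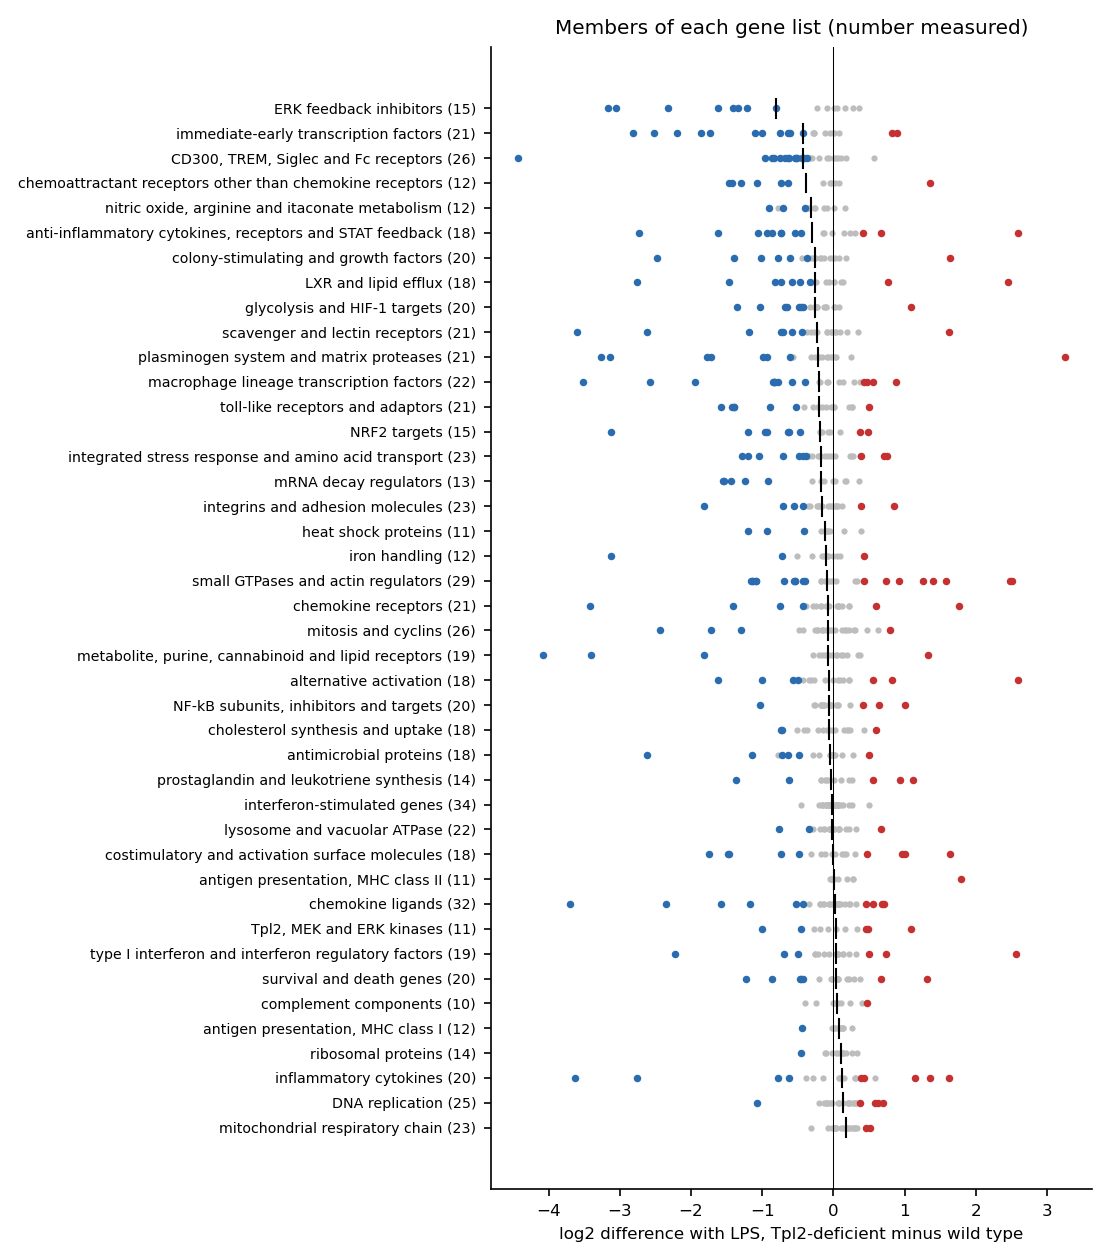
Log2 difference with LPS, Tpl2-deficient minus wild type, for every measured member of each gene list (points); red and blue points passed the test, grey points did not, and the black bar is the median of the list. ERK feedback inhibitors (median -0.80) are at the top, and interferon-stimulated genes have 0 coloured points.

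Lists of NRF2 targets, LXR and lipid genes, and glycolysis and HIF-1 targets had more falls than rises. Hmox1, the heme oxygenase, read 11.33 and 11.19 against 8.21 and 8.07 (8.72-fold lower) and led the NRF2 targets, of which 7 of 15 fell and 2 rose. Slc7a11, the cystine importer, was 2.30-fold lower in that list. Among LXR and lipid genes 7 of 18 fell and 2 rose: Ch25h, given above, and the lipase Lipg (2.76-fold lower) were the largest falls, and Mylip, the ligase that marks the LDL receptor for degradation, rose from 10.44 and 10.57 to 12.96 and 12.96 (5.48-fold). Slc2a1, the glucose transporter GLUT1, was 2.57-fold lower and led 7 falls and 1 rise in 20 glycolysis and HIF-1 targets, which were 4 and 1 with array weights.

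Nos2, the inducible nitric oxide synthase, read 9.74 and 9.81 against 8.67 and 9.32 and did not pass (difference -0.78, adjusted p = 0.0517), though it did under 9 of the alternatives. In its list 3 of 12 fell and 0 rose. The 18 alternative activation genes had 4 falls and 3 rises, and the 18 antimicrobial genes 5 falls and 1 rise, the latter 2 and 0 without LPS-treated wild-type replicate 1. Among 18 costimulatory and activation molecules 5 fell and 4 rose, with Slamf8 at -1.75, Havcr2 (TIM-3) at -1.48 and the ICOS ligand Icosl at 1.64.

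The antigen presentation lists had shares past the test near those of all genes. Ciita, the master activator of MHC class II genes, read 7.44 and 7.50 against 9.04 and 9.49 (3.47-fold higher), and it was the only 1 of 11 genes of the class II list that passed (9.09% higher, against 8.01% of all genes), at a list median of 0.00. Of 12 class I genes 1 fell (8.33%, against 5.73%), H2-M3 at -0.44, a call lost in 12 of the alternatives.

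The remaining lists ranged from few to many genes past the test. Actb read 14.44 and 14.38 against 14.40 and 14.38. Over all genes 5.73% fell and 8.01% rose. Of 14 ribosomal protein genes 1 fell (7.14%), and of 23 respiratory chain genes 2 rose (8.7%). Of 22 lysosomal genes 2 fell (9.09%) and 1 rose (4.55%), and of 18 cholesterol genes 2 fell (11.1%) and 1 rose (5.56%). Of 12 iron genes 2 fell (16.7%) and 1 rose (8.33%), and of 10 complement genes 1 rose (10%). Heat shock proteins had 3 falls in 11 (27.3%, against 5.73% of all genes), with Hspa1b 2.28-fold lower, and the integrated stress response and amino acid transport list had 7 falls (30.4%) and 3 rises in 23.

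Few of the genes that differed with LPS passed the test between the unstimulated cells. Without LPS 91 genes passed, 0.5% of those tested, 28 higher (0.154%) and 63 lower (0.346%). Of the 462 genes that differed by at least 2-fold with LPS, 23 (4.98%) also passed without LPS, and for 425 the difference between the LPS-treated genotypes was itself different from that between the unstimulated genotypes (interaction, adjusted p under 0.05). Over all genes 1563 passed that interaction test, 8.59%. The 462 genes were picked on LPS-treated arrays that the interaction test also uses, so the 425 are no separate support. Hcar2 differed by 0.08 without LPS, Il10 by 0.09, Cd300lb by 0.03 and Arhgap22 by -0.06.

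The signals without LPS show what these differences start from. Hcar2 read 6.59 and 6.50 in unstimulated wild type and 6.64 and 6.63 in unstimulated Tpl2-deficient cells, near the array median and below both groups with LPS. Cd300lb read 12.79 and 12.73 against 12.78 and 12.81, above both groups with LPS, and Fos 13.06 and 13.09 against 13.12 and 12.90, also above both. Cxcr4 read 12.89 and 12.91 against 13.01 and 12.96, so its higher signal in LPS-treated Tpl2-deficient cells still lay below that without LPS. Arhgap22, at 10.46 and 10.52 against 10.43 and 10.43, lay between the LPS-treated groups.

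Seen from the unstimulated cells, 47 of the 91 genes (51.6%) passed with LPS in the same direction and 4 in the opposite direction. Map3k8 differed by -0.998 without LPS and -0.9996 with it. Bst1, an ectoenzyme of NAD metabolism, differed by -1.10 without LPS and -2.83 with it, Met, the hepatocyte growth factor receptor, by -0.85 and -2.06, and Vegfc by -0.77 and -2.30. Uchl1 was low in both states (-2.73 and -2.44). Enpp4, an ectoenzyme that splits nucleotides, was higher by 2.94 without LPS and by 0.96 with it, and Hpgd, which degrades prostaglandins, by 1.08 and 1.11.

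Direction changed between the states in 4 genes. Egr1 was higher in Tpl2-deficient cells without LPS by 0.81 and lower with LPS by a difference of -1.73. Rras2, a Ras-related GTPase, differed by -0.70 without LPS and 1.70 with it, Pop5, a subunit of ribonuclease P, by -0.66 and 0.56, and Rasgef1a by -0.57 and 0.82. The Pop5 call with LPS was lost when its probe sets were averaged, without probe sets that may cross-hybridise, and without LPS-treated wild-type replicate 2.

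**Figure D5:**
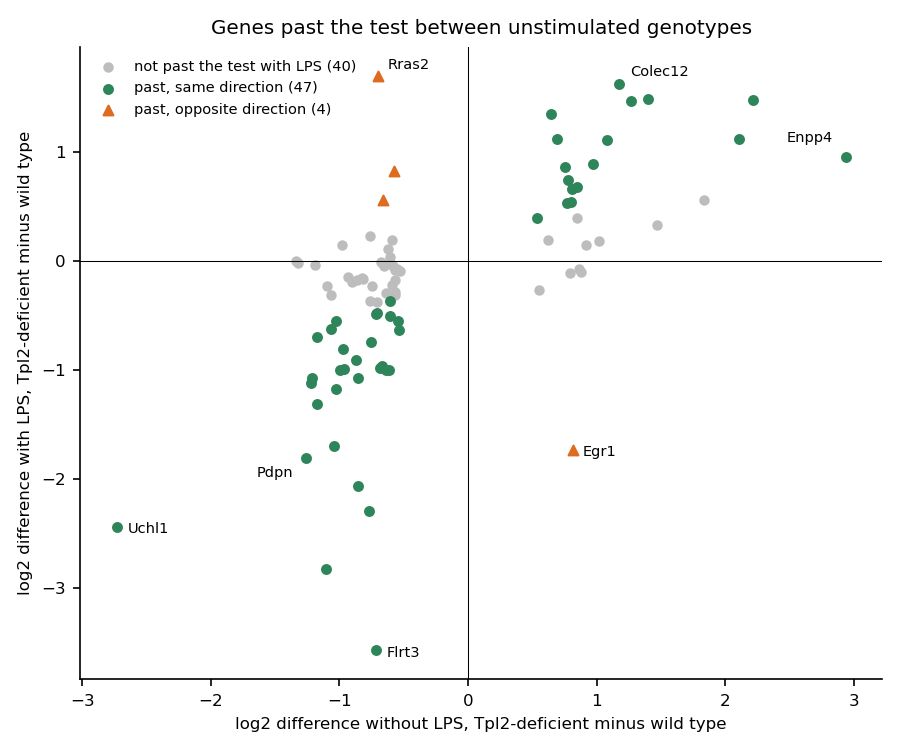
The 91 genes past the test between unstimulated genotypes, with the log2 difference without LPS (x axis) and with LPS (y axis), both Tpl2-deficient minus wild type. Green points (47) passed with LPS in the same direction, orange triangles (4) in the opposite direction, and grey points (40) did not pass with LPS.

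Genes that neighbour Map3k8 on chromosome 18 were counted on their own. Of the 15 measured neighbours, up to 10 on each side, 4 rose and 1 fell with LPS, against 8.01% and 5.73% of all genes. Without LPS 0 of the neighbours passed, and 2 had an unadjusted p under 0.05 in limma. Over the whole of chromosome 18, 10 of 463 tested genes passed without LPS, against 0.5% of all genes. Chromosome 5 had 16 of 1131 and chromosome 17 had 12 of 839. Among the neighbours, with LPS, Zfp438 differed by 1.10, Epc1 by 0.72, Crem, a cAMP-responsive factor, by 0.57, Zeb1 by 0.47 and Bambi by -0.57. Of these, Zfp438 kept its call in every alternative run, and the other 4 each lost it in at least 1. The strain background of the mice is not among the labels.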

How the data were processed

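RNA of 8 macrophage cultures, 2 per group of genotype and LPS treatment, was hybridised to Affymetrix mouse arrays. The deposited values are log2 signals made by the authors with GCOS and RMA, per the submitters' processing notes; versions and the chip definition are not given in the sources used here. No normalization was added. Precision is limited by the number of arrays, which carry no read depth.

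Of 45101 probe sets 34945 had exactly 1 gene symbol and gave 18193 genes by the highest mean; 932 with several symbols, 9160 with none and 64 controls were left out. A two-sided limma 3.58.1 model (R 4.3.3, lmFit with eBayes) was fitted to all 8 arrays with a mean per group, 4 residual and 6.87 prior degrees of freedom, and Benjamini-Hochberg adjustment over all genes. The method was run on simulated data with equal spread in all groups and with a wider spread in the LPS-treated Tpl2-deficient arrays. Its recovery and false calls are not reported here. Promoters came from RefSeq (GRCm38.p6), using 1 annotated start per gene.

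The members, gene lists, thresholds and the rule for named genes were chosen with earlier results of these data known. The rule takes the 15 largest rises and 15 largest falls past the threshold, up to 6 members per list past it, and a fixed set; further list members were named after their values were seen. The lists are described by counts and medians, without a set test. Alternatives covered probe set choice, normalization, filters, variance models, array weights, leaving out single arrays, a replicate block and a 2-fold minimum; spike-in centring and the alternatives for the lists were added after seeing the data.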

Additional observations from a re-analysis of the deposited data

Results flagged for a closer look

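For 128 of the 181 genes named, the difference between the genotypes with LPS was itself different from that between the unstimulated genotypes (limma interaction, adjusted p under 0.05). Over all genes the share was 8.59%. Most named genes were picked for their difference with LPS. The interaction uses the same LPS-treated arrays, so the count and the signs are no separate support. The values below are the log2 difference with LPS minus the log2 difference without LPS, so a negative value means that the mutant cells lost signal relative to wild type when LPS was added.

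The strongest of these lay with the leading genes. Among falls the interaction was -4.46 for Cd300lb, -4.16 for Hcar2, -3.35 for Slc39a14, -3.59 for Olr1, -3.40 for Zfp658, -2.86 for Flrt3, -2.81 for Flrt2 and -2.67 for Rgl1. Among rises it was 3.09 for Arhgap22, 2.80 for Plat, 2.87 for Efna2, 2.53 for Tex15, 2.50 for Foxl2os, 2.28 for Adhfe1, 2.25 for Stimate, 2.09 for Elavl4 and 2.09 for Rnf144b. ERK-responsive genes gave -2.74 for Fos, -2.24 for Ier2, -1.91 for Ier3, -1.83 for Fosl2, -2.54 for Egr1, -0.67 for Klf2, 1.07 for Ier5, 1.23 for Klf4, -3.47 for Dusp6, -2.72 for Dusp4, -2.19 for Spry2, -1.46 for Spred2, -1.41 for Dusp1 and -1.34 for Errfi1, and the kinase gene Rps6ka5 0.87.

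Cytokine genes had values of both signs. The values were -3.53 for Il1a, -2.66 for Il1b, -2.82 for Il10, -0.57 for Osm, -1.42 for Il4ra, -2.66 for Csf3, -1.02 for Pdgfa and -2.06 for Ifnar1 on the lower side, and 2.99 for Socs2, 2.49 for Ifnb1, 1.42 for Ebi3, 1.28 for Il12a, 1.01 for Il12b, 1.15 for Csf1 and 0.64 for Irf1 on the higher side. Rsad2, an antiviral gene that did not differ with LPS past the test, had -0.72, from a difference of 0.65 without LPS. For attractants and their receptors the values were -3.41 for Ccl7, -2.24 for Ccl2, -1.33 for Cxcl3, 0.78 for Cxcl11, -2.88 for Ccr1, 1.68 for Cxcr4, -1.31 for Cmklr1, -1.37 for P2ry2, -1.32 for P2ry6, -0.78 for C3ar1 and 1.51 for Gpr183. For plasminogen and matrix genes they were -3.33 for Serpinb2, -2.55 for Plaur, 2.80 for Plat, -1.62 for Timp1, -1.25 for Mmp13 and -0.90 for Adam8, with 0.57 for Itga4.

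Receptors and signalling genes followed. Surface receptors gave -1.35 for Cd33, -0.998 for Siglec1, -0.77 for Fcgr3, -2.29 for Marco, -1.08 for Msr1, -1.79 for Gpr84, -3.29 for Ptger2, 1.39 for Ptger4, -1.29 for Havcr2, -1.13 for Slamf8 and 1.56 for Icosl, and toll-like receptor and NF-kB genes -1.53 for Tlr4, -1.52 for Tlr8, -1.34 for Tlr13, -1.41 for Irak3, -0.99 for Tnip1, 0.84 for Traf1 and 0.94 for Ikbkb. Decay factors had -1.48 for Zfp36 and -1.24 for Zc3h12a. Transcription factors had -3.27 for Id1, -2.40 for Cebpd, -2.14 for Maf, -0.90 for Cebpa, -0.54 for Cebpb, 1.16 for Lhx2, 1.77 for Ciita, -1.56 for Tal1 and 1.54 for Gfi1. GTPase and actin genes had 2.64 for Cdc42ep3, 2.55 for Gem, 1.69 for Rgs1, 1.66 for Rhof, 1.39 for Rhob, -1.08 for Rnd1, -1.05 for Was and -0.95 for Rhou.

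Cell cycle, survival and metabolic genes completed the set, with -2.39 for Ccnd2, -1.39 for Ccnd1, -1.21 for Ccnd3, -0.82 for Cdt1, -1.20 for Bcl2l1 and 1.496 for Pmaip1, and -3.01 for Hmox1, -2.55 for Ch25h, -1.85 for Lipg, 2.30 for Mylip, -1.44 for Pla2g4a, -1.15 for Slc7a11, -0.99 for Slc2a1, -0.85 for Hspa1b and -0.81 for S100a8. Of the genes that already differed without LPS the interaction was 2.41 for Rras2, 1.398 for Rasgef1a, 1.22 for Pop5, -1.98 for Enpp4, -1.72 for Bst1, -1.53 for Vegfc and -1.21 for Met. The neighbours of Map3k8 had 0.99 for Zeb1, 0.95 for Zfp438, 0.73 for Crem and 0.69 for Epc1, and Map3k8 itself, which did not pass the interaction test, -0.00.

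Probe sets with no gene symbol were outside the comparison and also differed. Of 9160 such probe sets 528 passed the same test with LPS (5.76%), 272 higher and 256 lower, of which 117 by at least 2-fold.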

How the results depend on the processing

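No named gene past the test with LPS changed direction in any alternative run, and 138 of the 162 passed in each of them. The LPS-treated groups overlap in none of these genes. Leaving out 1 array, weighting arrays or changing the variance model therefore could not reverse a direction. Most named genes were also picked for their difference on these same arrays. Values near 0 that did not pass did change sign, such as Tnf (-0.02 to 0.17), Dusp5 (-0.10 to 0.12), Junb (-0.04 to 0.02) and Csf1r (-0.10 to 0.01), and so did list medians near 0, such as that of the chemokine ligands (-0.07 to 0.07). The counts below are of genes with LPS in all (2500), higher (1457) and lower (1043) in Tpl2-deficient cells, past the interaction test (1563) and past the test without LPS (91). Array weights, which gave the LPS-treated Tpl2-deficient arrays 0.378 and the other groups 1.34 to 1.45, changed the counts: one weight per group gave 1576 in all, 849 higher and 537 without LPS, and one per array 1580, 852 and 531. Leaving out 1 array gave 1356 to 3240 in all, 713 to 1791 higher, 630 to 1499 lower, 756 to 2565 for the interaction and 23 to 111 without LPS; the low counts with LPS came from leaving out a wild-type LPS array (1387 without replicate 1, 1356 without replicate 2), and the high ones from leaving out a Tpl2-deficient LPS array. A group left with 1 array was assumed to vary like the others. With a 2-fold minimum the counts were 462, 190, 272, 461 and 26. Each probe set on its own gave 4148 in all and 1983 lower, over more features. A mean-variance trend gave 140 without LPS, and spike-in centring, added after seeing the data, 982 for the interaction and 2034 in all (1245 higher, 789 lower). Only the 4 LPS-treated arrays gave 1778. Replicate numbers 1 and 2 occur in each group, and the labels do not say whether they pair the samples. Deviations from the group means correlated at 0.04 between the LPS-treated genotypes, and at -0.12 to 0.10 over all pairs of groups. With 2 arrays a group these values cannot decide whether samples were paired. A replicate block gave 2388 genes in all (1394 higher, 994 lower), 1454 for the interaction and 85 without LPS. With 2 arrays a group, signals under the array median and small differences are the least certain.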
